A study of Mus musculus with 2 samples.

Results

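The transcription factors described here are 10 genes grouped as mesenchymal factors, although not all are limited to mesenchyme. They are the basic helix-loop-helix (bHLH) factors Twist1, Twist2, Tcf21, Scx and Msc, the zinc-finger factors Snai1 and Snai2, the zinc-finger homeodomain factors Zeb1 and Zeb2, and the ETS factor Ets1. They were taken by symbol from the transcript clusters annotated to exactly 1 gene, and all 10 were found among the 19938 genes measured in this way, each through a single cluster. The RNA came from mouse cardiac neural crest cells at stage E14.5, sorted by flow cytometry from digested hearts as tdTomato-positive cells, and was hybridised to Affymetrix Mouse Gene 1.0 ST arrays. One sample was Adam19-/-; Wnt1-Cre; R26tdTomato/+ and the other was Adam19+/+; Wnt1-Cre; R26tdTomato/+, both on a C57BL/6 background. Both therefore carried the Cre driver, which is active in the neural crest, and the reporter, which marks every descendant of a cell that once expressed Cre, whatever that descendant has become. There was 1 array per genotype (n = 1), the sources used here do not say how many embryos stand behind each, and every difference below is that between these samples, with no replicate and no test.

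Neural crest cells leave the neural tube by an epithelial-to-mesenchymal transition in which Snail, Zeb and Twist factors repress epithelial genes such as the one for E-cadherin, and Ets1 acts in the cranial and cardiac crest. SNAIL and ZEB proteins bind E-box sequences through zinc fingers and recruit corepressors, whereas bHLH factors bind E-boxes as dimers, mostly with E proteins, and Id proteins take those partners away. In the heart, Twist1 is known from the mesenchyme of the endocardial cushions, Scx from tendons and the fibrous layers of the valves, and Tcf21 from epicardium and the cardiac fibroblasts that come from it.

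The bases upstream of 3 of the 4 factors with the largest differences described below are shown because these factors were higher together and several of the proteins bind E-boxes. Each line gives the 250 bases before the RefSeq transcription start, 5′ to 3′ on the gene's strand in GRCm38.p6, with matches to the E-box CANNTG in capitals. The window of Tcf21 lies on the minus strand at chr10:22820144-22820393, that of Twist1 on the plus strand at chr12:33957421-33957670 and that of Snai1 on the plus strand at chr2:167537945-167538194.
Tcf21: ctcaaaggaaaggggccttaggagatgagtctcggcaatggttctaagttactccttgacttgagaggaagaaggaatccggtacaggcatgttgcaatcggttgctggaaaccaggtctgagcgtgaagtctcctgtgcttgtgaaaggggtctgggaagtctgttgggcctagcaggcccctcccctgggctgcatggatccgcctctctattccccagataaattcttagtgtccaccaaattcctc
Twist1: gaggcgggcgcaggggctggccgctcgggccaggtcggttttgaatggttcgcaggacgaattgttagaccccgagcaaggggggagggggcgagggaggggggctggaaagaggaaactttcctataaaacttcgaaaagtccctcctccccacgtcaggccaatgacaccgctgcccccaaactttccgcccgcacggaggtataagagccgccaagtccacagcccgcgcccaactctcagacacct
Snai1: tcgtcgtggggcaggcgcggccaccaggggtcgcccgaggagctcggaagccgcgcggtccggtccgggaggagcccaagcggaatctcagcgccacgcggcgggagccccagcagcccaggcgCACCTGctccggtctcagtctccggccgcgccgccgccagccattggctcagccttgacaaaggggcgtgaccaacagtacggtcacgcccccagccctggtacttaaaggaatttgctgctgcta
The reverse complement of CANNTG is CANNTG itself, so a search of 1 strand covers both. Snai1 had 1 match, CACCTG, which starts 126 bases before the transcription start and is the form that SNAIL and ZEB proteins are known to bind. Tcf21 and Twist1 had 0 matches in these windows, and so did Twist2 and the windows of Zeb2. Among all 32851 windows of the same length, 66.2% held at least 1 CANNTG, and 17.2% held CACCTG or its reverse complement CAGGTG. A match is a description of the letters only, and binding was not measured.

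Adam19, which encodes a membrane-anchored metalloprotease, had a log2 signal of 9.77 in Adam19-/- cells, against 11.62 in Adam19+/+ cells, and so differed by -1.85 in the direction of the labels. Values are log2 signals per transcript cluster as deposited, and differences are Adam19-/- minus Adam19+/+. The median over all genes of the mean signal, 8.01, served as an expression floor, which 10122 genes reached on at least 1 array. It is a middle level, not a limit of detection. Over these genes the median difference was 0.04 and the central 95% ran from -0.20 to 0.30, so a difference of 0.04 marks the middle of the genes above the floor. Over all 19938 genes the median was 0.0061. In 583 genes with at least 2 clusters above the floor, the differences given by the 2 brightest lay a median of 0.05 apart, with a 95th percentile of 0.24. This gap holds no variation between samples. Genes of smooth muscle, glia and autonomic neurons, which are known derivatives of the cardiac neural crest, were above the floor in 8 of 8, 6 of 7 and 9 of 9 markers. Acta2 was at 13.62 in Adam19-/- cells, against 13.74 in Adam19+/+ cells, and Sox10 was at 10.50 in Adam19-/- cells, against 10.45 in Adam19+/+ cells. The samples also differed in Y-linked genes, with Eif2s3y at -1.62, Uty at -1.42 and Kdm5d at -1.17, while Xist differed by -0.11. These Y-linked genes were below the floor in Adam19-/- cells and above it in Adam19+/+ cells. Uty, for example, was at 7.61 in Adam19-/- cells, against 9.03 in Adam19+/+ cells. Xist was bright in both, at 11.14 in Adam19-/- cells, against 11.25 in Adam19+/+ cells. With 1 array per genotype, the Y-linked contrast cannot be separated from genotype. Whether the sex of the embryos bears on the differences below was not tested.

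Tcf21, Scx and Twist1 were higher in Adam19-/- cells, by 1.48-fold, 1.34-fold and 1.32-fold, followed by Snai1 at 1.23-fold. The other 6 factors, Twist2, Snai2, Zeb1, Zeb2, Ets1 and Msc, differed by no more than 0.06 on the log2 scale in either direction. Of the 10 factors, 9 were above the floor, all of them on both arrays, and Msc was below it on both.

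**Figure D1:**
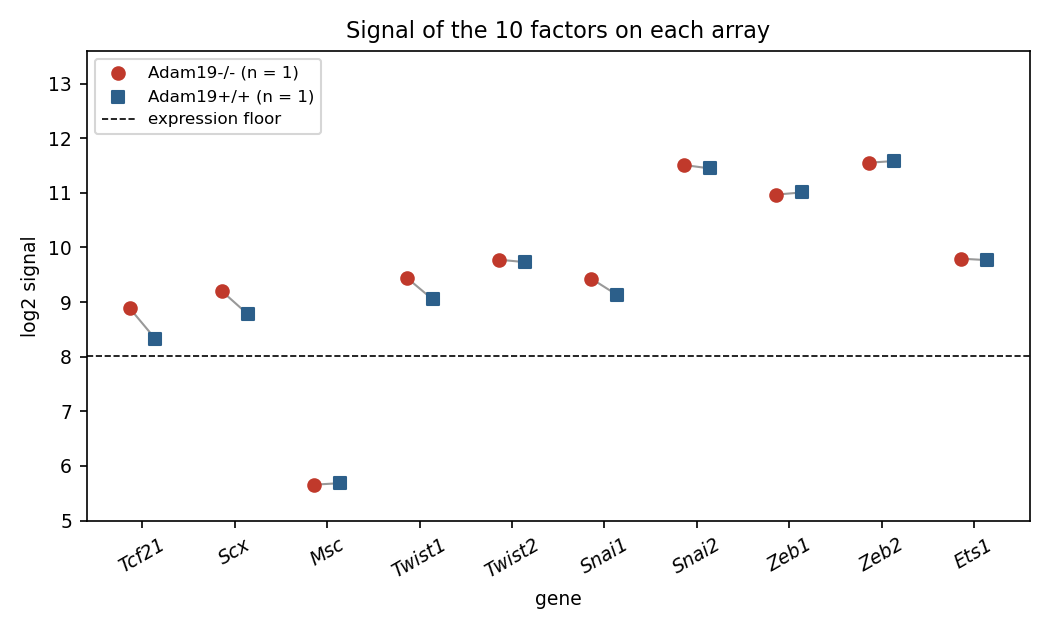
Log2 signal of each of the 10 factors in the Adam19-/- sample (red circles) and the Adam19+/+ sample (blue squares), 1 array per genotype, with the expression floor as a dashed line. The steps of Tcf21, Scx, Twist1 and Snai1 are visible, the signals of the other 6 lie close together on both arrays, and Msc lies under the floor on both.

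Among the bHLH factors of the 10, Tcf21 showed the largest difference. Tcf21 (transcript cluster 10368240, chromosome 10), a factor needed for cardiac fibroblasts to form, had a log2 signal of 8.89 in Adam19-/- cells and 8.32 in Adam19+/+ cells. On the linear scale these are 475 signal units in Adam19-/- and 321 in Adam19+/+ cells, and the log2 difference of 0.57 was the 22nd largest increase of the 10122 genes above the floor. Its level stood at percentile 61.4 of all genes in Adam19-/- cells, against percentile 54.4 in Adam19+/+ cells, the lowest of the 9 factors above the floor. Such percentiles place a cluster's brightness and not a transcript's abundance, since clusters differ in their probes.

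Scx (cluster 10424905, chromosome 15), which encodes scleraxis, the bHLH factor of tendon progenitors and fibrous valve tissue, was at 9.20 in Adam19-/- cells and 8.78 in Adam19+/+ cells. The log2 difference of 0.42 ranked 74 from the top, and its level stood at percentile 66.0 in Adam19-/- cells, against 60.6 in Adam19+/+ cells. Msc (cluster 10353213, chromosome 1) encodes musculin, a bHLH repressor known from head muscle precursors. It was at 5.66 in Adam19-/- cells, against 5.69 in Adam19+/+ cells, at percentile 19.8 of all genes in Adam19-/- cells and 20.2 in Adam19+/+ cells, and its difference of -0.03 is one between dim signals.

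The Twist genes differed from each other. Twist1 (cluster 10395320, chromosome 12), which in mice is needed for cranial neural tube closure and acts in cushion mesenchyme, was at 9.45 in Adam19-/- cells, against 9.05 in Adam19+/+ cells. On the linear scale this is 698 units in Adam19-/- and 530 in Adam19+/+ cells. Its difference of 0.40 ranked 97 from the top. Twist2 (cluster 10348632, chromosome 1), a close paralog known from dermis and other connective tissue, was at 9.78 in Adam19-/- cells, against 9.73 in Adam19+/+ cells, and differed by 0.04, equal at this precision to the median of the genes above the floor. The difference of Twist1 exceeded that of Twist2 by 0.35 on the log2 scale, a gap that has no replicate behind it.

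Of the Snail genes, Snai1 showed a larger difference than Snai2. Snai1 (cluster 10478884, chromosome 2), the Snail family member whose loss in mice stops gastrulation, was at 9.43 in Adam19-/- cells, against 9.13 in Adam19+/+ cells. Its difference of 0.30 ranked 258 from the top and lay at the upper end of the central 95% of genes above the floor. Snai2 (cluster 10433776, chromosome 16), which encodes SLUG, was much brighter, at 11.51 in Adam19-/- cells, against 11.45 in Adam19+/+ cells. Its level stood at percentile 94.8 of all genes in Adam19-/- and 94.5 in Adam19+/+ cells. With a difference of 0.06 it lay 0.02 above the median of the genes above the floor.

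The Zeb genes gave nearly the same value on both arrays. Zeb1 (cluster 10453678, chromosome 18), a repressor of epithelial genes, was at 10.97 in Adam19-/- cells, against 11.01 in Adam19+/+ cells, and differed by -0.04. Zeb2 (cluster 10482448, chromosome 2), the gene mutated in Mowat-Wilson syndrome in humans and needed in mice for neural crest formation, was at 11.55 in Adam19-/- cells, against 11.58 in Adam19+/+ cells, and differed by -0.03. Zeb1 and Zeb2 were the only members above the floor with a negative difference, and both differences were smaller than the median gap of 0.05 between clusters of a gene. Zeb2 had the brightest cluster of the 10 factors on both arrays, at percentile 95.1 in Adam19-/- cells and 95.3 in Adam19+/+ cells.

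Ets1 (cluster 10584142, chromosome 9), a factor of the cardiac neural crest that endothelial cells and lymphocytes also express, was at 9.79 in Adam19-/- cells, against 9.77 in Adam19+/+ cells. Its difference of 0.03 lay 0.01 below the median of the genes above the floor. Its level stood at percentile 75 of all genes in Adam19-/- cells, against 75.4 in Adam19+/+ cells.

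Counted together, 7 of the 9 factors above the floor were higher and 2 lower in Adam19-/- cells, where 65.2% of the 10122 genes were higher and 33.7% lower, so the split by direction is close to that of the genes above the floor. Their median difference was 0.06, beside 0.04 for the genes above the floor. Differences of at least 0.32 on the log2 scale, which is 25% more signal, were counted. Tcf21, Scx and Twist1 were higher by at least this much, 3 of 9, where 1.97% of the genes above the floor were, and Snai1, at 0.30, was the nearest below. None of the 9 was lower by 0.32 or more, where 0.652% of genes were, and none reached 1.5-fold in either direction, which 0.148% of genes did upward and 0.0889% downward.

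Differences were wider among dim genes, and the factors with the larger differences were not the bright ones. The 9 factors were therefore also ranked among the 500 genes nearest to each in mean signal. Tcf21 ranked 3 from the top among its neighbours, Scx 4, Twist1 8 and Snai1 15. Snai2 ranked 139, Twist2 245, Ets1 297, Zeb2 380 and Zeb1 397. The genes above the floor were also cut by mean signal into 3 bins of 3374. In the dimmest bin, which holds Tcf21 and Scx, 3.79% of genes were higher by at least 0.32, in the middle bin, with Twist1, Twist2, Snai1 and Ets1, 1.66% were, and in the brightest, with Snai2, Zeb1 and Zeb2, 0.445% were.

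**Figure D2:**
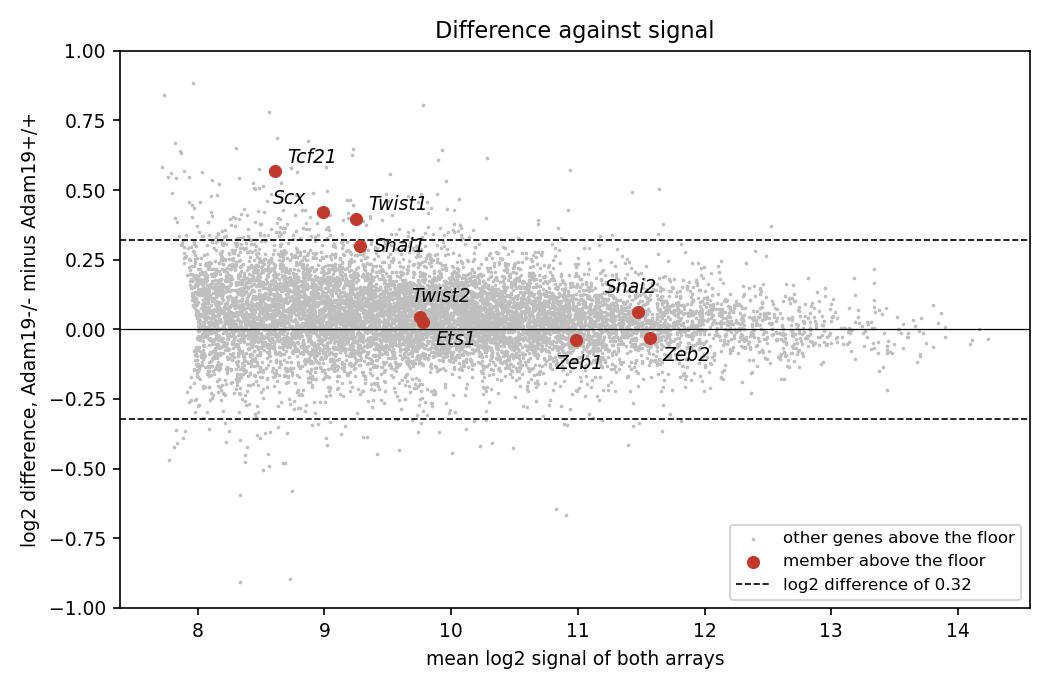
Log2 difference (Adam19-/- minus Adam19+/+) against mean log2 signal of both arrays for genes above the floor (grey) and the 9 factors above it (red, named), with 0.32 in either direction as dashed lines. Genes that differed by more than 2-fold, all of them lower in Adam19-/- cells, lie outside the axis. Tcf21, Scx and Twist1 lie above the upper line, Snai1 just under it, and the other 5 within the dense band.

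Most bHLH and Snail relatives were dim, whereas most ETS relatives were not. Of 14 bHLH relatives measured, only Hand1 and Hand2 were above the floor, both factors of cardiac and neural crest development. Hand1 was at 9.53 in Adam19-/- cells, against 8.91 in Adam19+/+ cells, a difference that reached 0.63 and ranked 13 from the top. Hand2 was at 10.88 in Adam19-/- cells, against 10.78 in Adam19+/+ cells, and differed by 0.11. Hand1 lies on chromosome 11, as does Adam19, and whether its position bears on the value was not tested. Tcf24 differed by 0.65 below the floor, at 7.77 in Adam19-/- cells, against 7.12 in Adam19+/+ cells. Of the 3 Snail and Scratch relatives, only Scrt2, a neuronal repressor, was above the floor, and it differed by -0.16. ETS relatives gave small differences. Of the 13 of 14 above the floor 10 were higher and 3 lower, by a median of 0.06 and none by 0.32 or more. Among all genes above the floor, 65.2% were higher and 33.7% lower. Fli1, a factor of endothelium and blood, differed by 0.17, and the serum response cofactors Elk1 and Elk3 by 0.16 and 0.15.

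Dimer partners and cofactors of the proteins differed little. Among the 7 E protein and Id genes, all above the floor, 3 were higher and 4 were lower, and the median was -0.01. Tcf3, which encodes the E proteins E12 and E47, was highest at 0.15, Id1 was at 0.08 and Id4 at -0.08. Corepressor genes of SNAIL and ZEB proteins were higher in 12 of 16 cases and lower in 4, by a median of 0.06. Among all genes above the floor, 65.2% were higher and 33.7% lower. The extremes were Mta2, a subunit of the NuRD deacetylase complex, at 0.14, the LIM protein gene Ajuba at 0.12 and the Polycomb gene Suz12 at -0.12. Of the genes for the turnover of SNAIL and TWIST proteins, 6 were higher and 6 lower, a smaller share higher than among all genes above the floor. Their median was 0.03, with the kinase gene Prkd1 at 0.16, the deubiquitinase gene Usp9x at 0.14 and the phosphatase gene Ctdsp1 at 0.13. No member of these 3 lists differed by 0.32 or more, and the sign of the turnover median depended on the scaling.

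Genes known as targets or as markers of the same tissues also differed in both directions. Of 21 epithelial genes that SNAIL and ZEB proteins are known to repress or that mark epithelia, 5 reached the floor. Of these, 1 was higher and 4 were lower, and their median was -0.09, where 65.2% of genes above the floor were higher and 33.7% lower. Krt8, 1 of the lower genes, reached the floor through the Adam19+/+ array alone. With both arrays above the floor, 4 genes were left, with a median of -0.10. Over all 21 the median was 0.00, since 7 were higher, 8 lower and 6 equal. A floor at percentile 75 of genes left 1 gene, Jup. The keratin gene Krt18 differed by -0.23, the desmoplakin gene Dsp by -0.17 and the plakoglobin gene Jup by 0.11. Cdh1, the gene for E-cadherin, was below the floor on both arrays, at 6.88 in Adam19-/- cells, against 6.66 in Adam19+/+ cells. Mesenchymal genes numbered 19 above the floor, and 11 of them were higher and 8 lower, by a median of 0.02 whose sign depended on the scaling. The matrix protein gene Tgfbi was at 12.71 in Adam19-/- cells, against 12.34 in Adam19+/+ cells, and differed by 0.37, the receptor gene Pdgfra differed by 0.22 and the protease gene Fap by -0.28. Among 11 tendon and fibrous genes above the floor, 5 were higher, 5 were lower and 1 was equal, as 1.07% of all genes above the floor were, and their median was 0.00. Fmod, which encodes the collagen-binding proteoglycan fibromodulin, was at 11.03 in Adam19-/- cells, against 10.66 in Adam19+/+ cells, and differed by 0.36, whereas Tnc, the gene for tenascin C, differed by 0.16 and Egr2 by -0.21. Tnmd, the tenomodulin gene and a known target of SCX, was the equal gene, with exactly the same value, 8.42, on both arrays. How such exactly equal values arise was not tested.

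**Figure D3:**
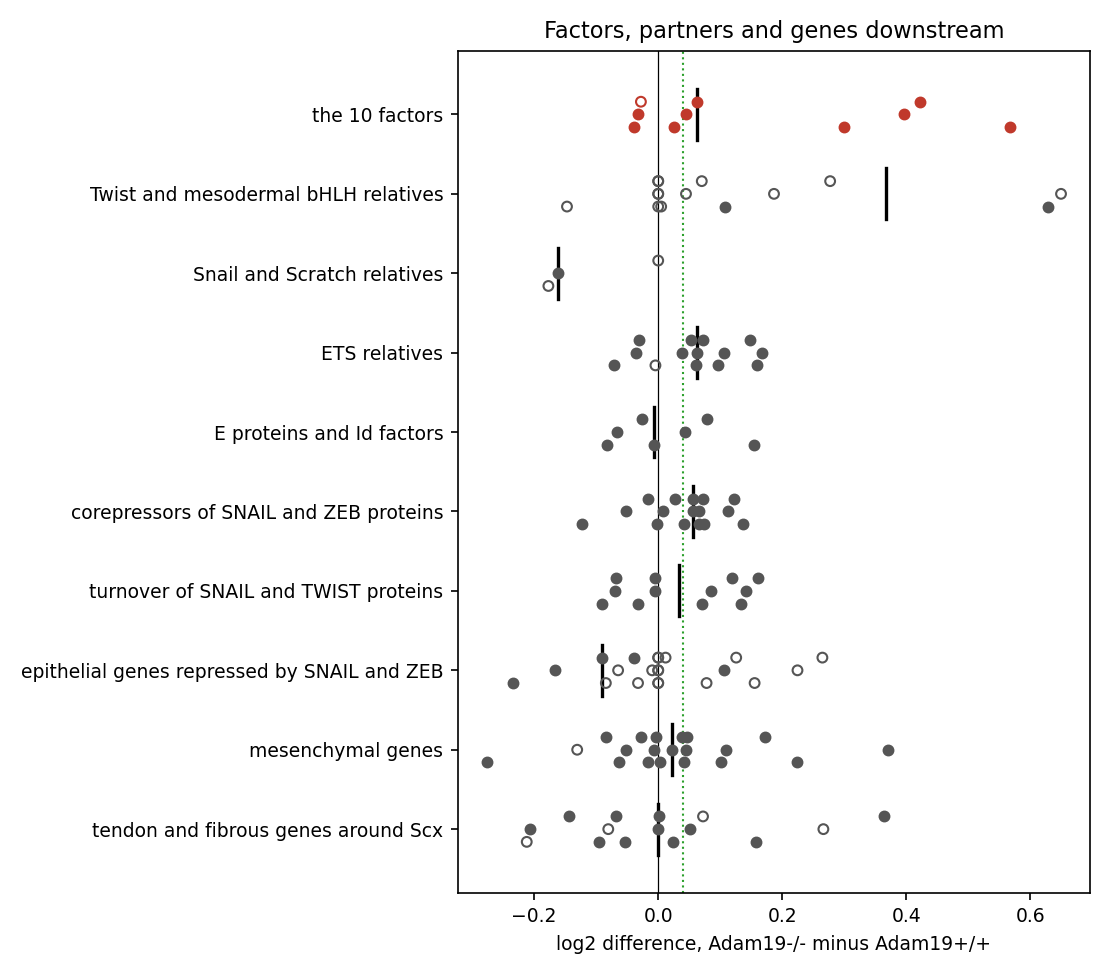
Log2 difference (Adam19-/- minus Adam19+/+) of each gene, by list, for the 10 factors (red, top row) and for relatives, partners and genes downstream (grey). Filled points are above the expression floor, open points below it, black bars are medians over filled points and the dotted green line is the median of all genes above the floor. Apart from the 10 factors, filled points past 0.3 are Hand1, Tgfbi and Fmod.

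Several of the factors are also expressed in cells that the reporter should not mark, and markers of those cells were read beside them. In sorted bulk samples, more cells of a type and more RNA per cell cannot be told apart. Epicardial markers, which share a tissue with Tcf21, were higher in 7 of 11 measured genes, lower in 2 and equal in 2, where 51.7% of all measured genes were higher, 34.1% lower and 14.2% equal. Their summed linear signal was 4451 in Adam19-/- and 4172 in Adam19+/+ cells. Tbx18 differed by 0.21, Aldh1a2 by 0.20, Cldn11 by 0.18 and Lrrn4, below the floor, by 0.42. The 2 lower markers were Sema3d at -0.06 and Upk1b, below the floor, at -0.22. The defining markers Wt1 and Msln were below the floor at exactly equal values, 7.61 and 5.72. Leukocyte markers were higher in 15 of 16 genes and equal in 1, with a summed linear signal of 3395 in Adam19-/- and 2591 in Adam19+/+ cells. Only 4 of the 16 were above the floor, led by Laptm5 at 0.68, C1qb at 0.65 and Fcer1g at 0.56. C1qb and Fcer1g reached it through the Adam19-/- array alone, and without them the median over markers above the floor was 0.36, against 0.61 with them. The others higher by at least 0.32, all below the floor, were Lyz2 at 0.56, Adgre1 at 0.49, Tyrobp at 0.39, Csf1r at 0.36 and C1qc at 0.33. Cx3cr1 and Aif1, also below the floor, differed by 0.06 and 0.02. The pan-leukocyte gene Ptprc was at 6.26 in Adam19-/- cells, against 6.05 in Adam19+/+ cells.

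Endothelial markers were higher in 8 of 12 genes, lower in 3 and equal in 1. Of those above the floor, 6 of 9 were higher, close to the 65.2% of all genes above it. For the counts that follow, 51.7% of all measured genes were higher and 34.1% lower, and 33.7% of genes above the floor were lower. The summed endothelial signal was 8194 in Adam19-/- and 7659 in Adam19+/+ cells. Nfatc1 differed by 0.49, Ramp2 by 0.30 and Egfl7 by 0.23, while Ets1, which endothelium also expresses, was at 0.03. The 3 lower endothelial markers were Esam at -0.14, Npr3 at -0.12 and Emcn, which reached the floor only in Adam19+/+ cells, at -0.09. The defining genes Pecam1 and Cdh5 were below the floor, Pecam1 at 7.34 in Adam19-/- cells, against 7.06 in Adam19+/+ cells, and Cdh5 at 7.92 in Adam19-/- cells, against 7.66 in Adam19+/+ cells. Cardiomyocyte markers were higher in 12 of 15 and lower in 3. Myl7 was at 0.78, Pln at 0.54 and Myh6, which reached the floor only in Adam19-/- cells, at 0.39. Ttn, below the floor, was at 0.35. The lower ones, all above the floor, were Tnnc1 at -0.22, Tnnt2 at -0.10 and Tnni3 at -0.03. Summed cardiomyocyte signal was 9572 in Adam19-/- and 8752 in Adam19+/+ cells. Of 5 erythroid markers 3 were higher and 2 lower, with Hba-x at 0.36 and Hbb-y at 0.29. The lower ones, both below the floor, were Slc4a1 at -0.13 and Epb42 at -0.02. Summed erythroid signal was 2944 in Adam19-/- and 2454 in Adam19+/+ cells. The derivatives of the crest did not share a direction. All 8 smooth muscle markers were lower, with a median of -0.10 and with Lmod1 at -0.25, Tagln at -0.15 and Smtn at -0.13. Glial markers were lower in 6 of 7, with Dhh at -0.22, Fabp7 at -0.15 and Cdh19 at -0.14. Autonomic neuron markers were higher in 6 of 9, all above the floor, a share close to the 65.2% of genes above it. Th was at 0.46, Dbh at 0.43 and Gata3 at 0.35. The 3 lower autonomic markers were Prph at -0.11, Chrna3 at -0.10 and Stmn2 at -0.02. The part of any of these cell types in the differences of Tcf21, Scx, Twist1 and Snai1 was not tested.

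**Figure D4:**
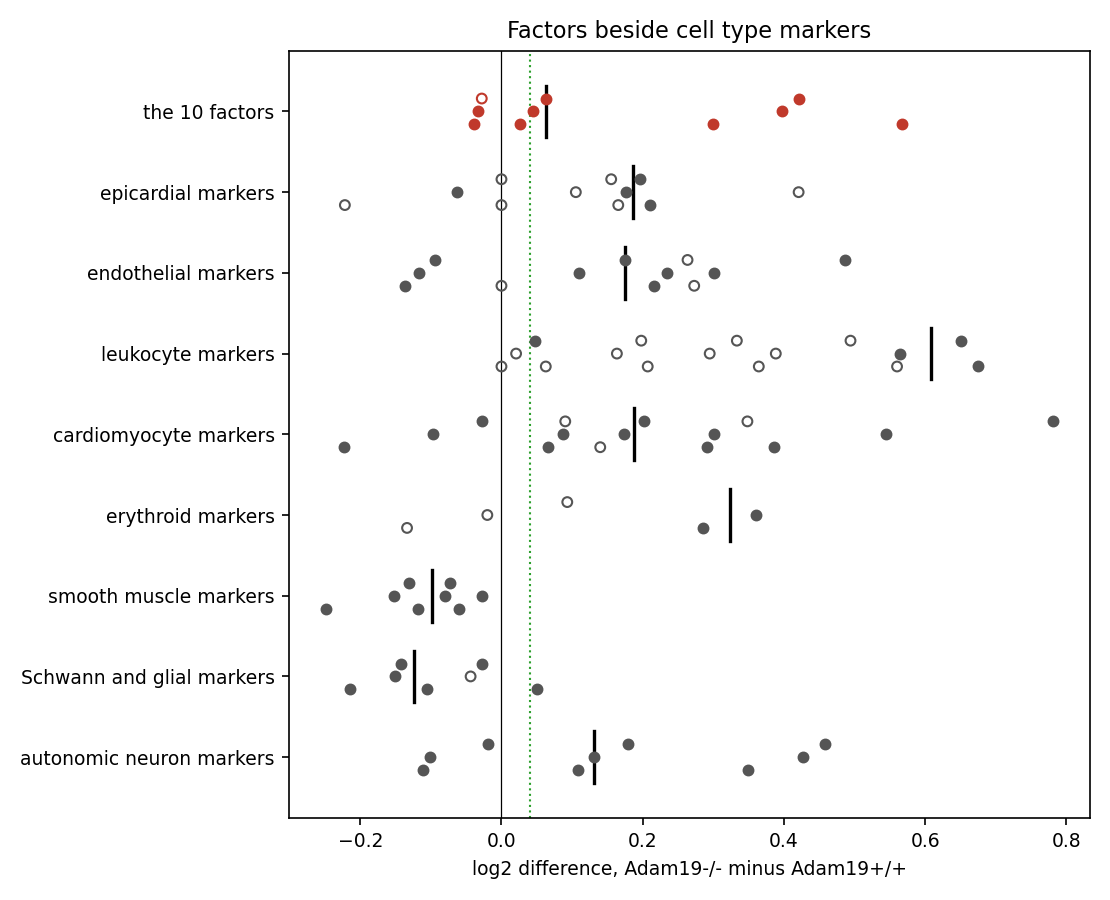
Log2 difference (Adam19-/- minus Adam19+/+) of the 10 factors (red, top row) and of marker genes of other cell types and of crest derivatives (grey). Filled points are above the expression floor, open points below it, black bars are medians over filled points and the dotted green line is the median of all genes above the floor. No leukocyte marker lies below 0 and every smooth muscle marker does.

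The signs of Twist2 and Ets1 depended on how the arrays were scaled. Under 5 other ways of scaling or summarising the values, Tcf21 ranged from 0.51 to 0.57, Scx from 0.36 to 0.42 and Twist1 from 0.34 to 0.40, at least 0.32 in each, and Snai1 from 0.25 to 0.30, under 0.32 in each. Of these 5, the mean over clusters could only repeat the deposited value, since each factor has 1 cluster. Twist2 ranged from -0.0010 to 0.04 and Ets1 from -0.02 to 0.03, on both sides of 0. Snai2 stayed between 0.03 and 0.06, Zeb1 between -0.07 and -0.04 and Zeb2 between -0.06 and -0.03.

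**Figure D5:**
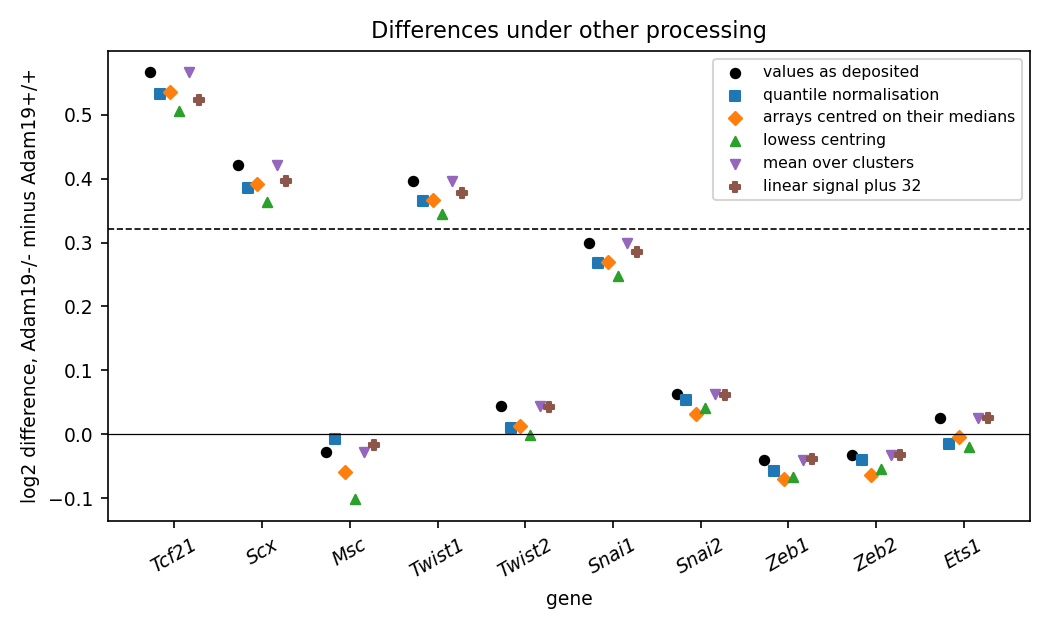
Log2 difference (Adam19-/- minus Adam19+/+) of each factor with the values as deposited (black circles) and under 5 other ways of scaling or summarising them (coloured symbols), with 0.32 as a dashed line. Tcf21, Scx and Twist1 stay above the line, Snai1 stays below it, and Twist2 and Ets1 lie on both sides of 0. The mean over clusters repeats the deposited value, since each factor has 1 cluster.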

How the data were processed

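The authors deposited a table of log2 signals for 28853 transcript clusters, 1 column per array. The sources used here do not give the background correction or normalisation. The base of the logarithm was inferred, since with base e the highest value would stand for 2021567, above the 65535 of a 16-bit scanner. Clusters were named through the platform's annotation, with symbols updated by Entrez identifier from a RefSeq table of GRCm38.p6 (21698 of 21789 clusters with 1 symbol matched). The brightest cluster stood for a gene. With 1 array per genotype no test, p-value or standard error was computed, and the number of arrays limits the precision. A log2 difference of 0.32, or 25% more signal, was used to describe size.

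The members, the 18 gene lists, the thresholds and the alternatives were chosen with earlier results of these data known, and no list supports another. Named genes were every member, Adam19, the sex-linked genes, and of each list the 3 above the floor with the largest absolute difference and any that differed by 0.32 or more. Other genes (Acta2, Sox10, Cdh1, Krt8, Tnmd, Wt1, Msln, Sema3d, Upk1b, Ptprc, Pecam1 and Cdh5) were picked with their values in view. So were the markers Cd68, Cx3cr1, Aif1, Esam, Npr3, Emcn, Tnnc1, Tnnt2, Tnni3, Slc4a1, Epb42, Prph, Chrna3 and Stmn2. Of the list members, 9 are not analysed here. Promoter sequences are RefSeq's, and 5 of the 10 members matched that table. Only the fold cut and the choice of the brightest cluster were tested, on shuffled differences with added folds and on a made-up gene. The software was matplotlib 3.10.9, statsmodels 0.14.6, pandas 2.3.3 and numpy 2.4.6 under Python 3.11.15. Alternatives changed the floor or used quantile normalisation, centring on medians or on a lowess curve, the mean over clusters, and adding 32 to the linear signal.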

Additional observations from a re-analysis of the deposited data

How the results depend on the processing

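No paired analysis was possible because each genotype has 1 array. A value was taken as moved where an alternative shifted it by more than the median gap of 0.05 between clusters of a gene, and a count or share where it changed by more than 1.5 times. A floor at percentile 75 of genes, 9.76, left 5 factors, 3 of them higher and 0 with a difference of 0.32 or more, because Tcf21, Scx, Twist1 and Snai1 lie under that floor on both arrays. Centring on a lowess curve gave 0.51 for Tcf21, 0.36 for Scx and -0.10 for Msc, and 4 lower factors in place of 2. The other 83 values of the factors under alternatives stayed within these limits. The count of differences of at least 0.32 was 3 under each alternative except the higher floor, and the median over the factors lay between 0.03 and 0.06. For the gene lists and all genes together, 395 values stayed within the limits and 51 moved, 43 of them under another floor, which keeps other genes. The median over the genes kept lay between -0.0010 and 0.04 under every setting, a shift under 0.1. Under the 5 scalings, the medians of the mesenchymal genes (-0.01 to 0.02) and of the protein turnover genes (-0.0094 to 0.07) crossed 0, and those of the E protein, Id and tendon genes reached 0.00. The medians of the other lists kept their sign there. Each factor has 1 cluster, so averaging clusters could not change its value.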

Other observations

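Exactly equal values on both arrays were common among dim genes, 14.2% of all measured genes against 1.07% of those above the floor. None of the 10 factors had equal values. Among the 14 bHLH relatives 5 did, and so did 6 of the 21 epithelial genes. Of the 3 Snail and Scratch relatives 1 was equal.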
